A study of Mus musculus with 10 samples.

Results

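The replication-dependent histone genes encode the histone proteins that package newly copied DNA: the core histones H2A, H2B, H3 and H4 and the linker histone H1. They were taken as all genes whose GENCODE vM21 symbol starts with Hist1h, Hist2h, Hist3h or Hist4h and whose Ensembl identifier was listed in both deposited count tables, which left 62 genes of the 38086 identifiers in both tables. Of 70 such symbols in the annotation, 6 were listed in the LSK table alone and 2 in neither table. The 62 genes were 6 of class H1, 20 of H2a, 16 of H2b, 7 of H3 and 13 of H4, and 59 of them were protein coding and 3 pseudogenes. They were measured in 10 libraries of bone marrow cells sorted from C57BL/6 mice at 12 months of age. LSK cells (Lin- Sca1+ cKit+) include haematopoietic stem cells and multipotent progenitors, and GMP (Lin- Sca1- cKit+ CD34+ FcgR+) are progenitors of granulocytes and macrophages. KO mice carried floxed Dnmt3a alleles and the Mx1-Cre transgene, whose interferon-responsive promoter acts in blood-forming cells and in other tissues. CTRL mice had floxed alleles but no Cre, and the labels of every sample name 5 injections of poly(I:C), which induces Cre. In every comparison the loss of Dnmt3a, a de novo DNA methyltransferase, therefore goes together with the presence of Cre. There were 3 KO and 2 CTRL libraries of each population, and each is called by its genotype and title number.

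Replication-dependent histone mRNAs are made mainly in S phase, from clusters of intronless genes. They do not end in a poly(A) tail but in a conserved stem-loop, which the stem-loop binding protein Slbp holds and which the U7 small nuclear ribonucleoprotein and its cleavage factors use to cut the transcript. Because the libraries were made from total RNA after removal of ribosomal RNA, transcripts without a poly(A) tail could be sequenced. In sorted bulk samples, fewer cells in S phase and less histone RNA per cell cannot be told apart.

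The genes lay in few places (GRCm38). Of the 49 Hist1 genes, 48 lay within chr13:21715763-23934851, the 9 Hist2 genes lay within chr3:96219865-96269141, the 3 Hist3 genes on chromosome 11 and Hist4h4 on chromosome 6. The pseudogene Hist1h2al lay apart from the others on chromosome 13. A total of 57 genes had 1 annotated exon.

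The stem-loop was read from the annotated transcripts (GENCODE vM21), because it is the feature that sets this gene family apart and differs between its classes. It was searched downstream of the stop codon as a stem of 6 base pairs around a loop of 4 bases, with the arms GGNNCT and AGNNCC, whose N pair with each other, and the loop TNTN, a pattern chosen after the transcripts were seen. It was found in 41 of the 47 coding genes with at least 16 annotated bases after the stop codon, and in 4 of 20931 other genes (0.0191%), among them H2afx, the replication-independent variant used in DNA repair. The following stretches show each form of the loop, in capitals, in the gene that carried it with the highest level per kilobase of coding sequence.
Hist1h1c: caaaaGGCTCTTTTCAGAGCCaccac
Hist1h2bb: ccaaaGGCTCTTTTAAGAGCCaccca
Hist2h2ac: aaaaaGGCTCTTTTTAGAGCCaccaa
Hist1h4d: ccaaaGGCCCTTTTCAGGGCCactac
Hist1h4a: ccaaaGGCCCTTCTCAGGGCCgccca
Hist1h4j: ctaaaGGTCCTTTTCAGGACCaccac
Hist2h4: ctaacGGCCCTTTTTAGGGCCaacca
The form of Hist1h1c was the most frequent, in 23 genes of classes H1, H2a, H2b and H3, and that of Hist1h4d stood in 7 genes, all of class H4. All 12 H4 loops started with GGCC or GGTC, and all loops of the other classes with GGCT. The loop began 21 to 58 bases after the stop codon, with a median of 31. In 15 genes the annotated transcript ran more than 200 bases past the loop. Whether their reads came from RNA that ends at the loop or from longer forms was not tested. The 6 genes without a match were Hist1h1a, Hist1h2bc, Hist1h2bq, Hist1h2br, Hist2h2be and Hist2h3b, and Hist1h1a had 48 annotated bases after its stop codon. No match says only that these letters are not in the annotated stretch.

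Promoter sequences from RefSeq (GRCm38.p6, 250 bases before to 50 after the start) were matched by symbol for 54 of the 62 genes. The motif CCAAT, searched on both strands like the others, was found in 45 of them (83.3%), against 37.4% of all 32851 promoters in the table. It was in all 42 promoters of classes H1, H2a, H2b and H3 and in 3 of 12 H4 promoters. TATAAA was in 59.3% of the histone promoters and 13.6% of all, and the octamer ATTTGCAT in 20.4% and 1.74%, in 7 H2a and 4 H2b promoters. Some H2a and H2b genes on opposite strands share a promoter stretch, such as Hist1h2ae with Hist1h2bg. A site in a shared stretch counts for both genes, so these are counts of promoters and not of separate sites. GGTCC was in 44.4% and 45.5%, and in 11 of the 12 H4 promoters. For the gene of classes H1, H2b and H4 with the highest level per kilobase of coding sequence, the 130 bases before the RefSeq start follow. Every match to these motifs is in capitals.
Hist1h1a: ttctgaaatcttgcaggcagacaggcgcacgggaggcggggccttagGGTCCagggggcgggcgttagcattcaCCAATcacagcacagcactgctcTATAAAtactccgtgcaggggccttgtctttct
Hist1h2bb: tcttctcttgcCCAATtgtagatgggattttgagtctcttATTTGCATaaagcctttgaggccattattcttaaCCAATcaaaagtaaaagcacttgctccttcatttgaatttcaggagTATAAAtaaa
Hist1h4d: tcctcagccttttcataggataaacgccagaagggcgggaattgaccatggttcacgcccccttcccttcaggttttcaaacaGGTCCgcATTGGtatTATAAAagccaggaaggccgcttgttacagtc
They lie at chr13:23763538-23763667, chr13:23746604-23746733 and chr13:23581438-23581567, all on the plus strand.

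Histone genes are near copies of each other, and the GMP table lists reads without a unique alignment apart from the genes, so a gene's count there rests on the stretches that no other gene shares. Of all windows of 50 bases of coding sequence, the median share found in no other annotated gene was 89.01% for H1 genes but 8.16% for H2a, 18.55% for H2b, 4.46% for H3 and 28.85% for H4. Of the pairs with the same coding length, 4 were identical: Hist1h2ao with Hist1h2ap, Hist2h2aa1 with Hist2h2aa2, Hist1h2bq with Hist1h2br and Hist1h4m with Hist1h4n. Hist1h2aa, Hist2h2aa1, Hist2h2aa2, Hist2h3b and Hist2h3c1 had 0 reads in all 10 libraries. The last 4 of these have no transcript window of 50 bases of their own (0%), whereas Hist1h2aa, known from testis, has 76.25% unique windows. Hist1h2ao, Hist1h2ap, Hist1h2bq, Hist1h2br and the testis gene Hist1h2ba had 9 to 19 reads over the 5 GMP libraries and 0 to 5 over the 5 LSK libraries. All 10 stayed under the filter on low counts, and 52 genes were tested in GMP and in the fits of all 10 libraries. In LSK 50 were tested, without the pseudogenes Hist1h2aj and Hist1h2al. In the annotation 22 genes overlapped a gene on the opposite strand. For 19 of them, all H2a, such a gene was listed in the LSK table alone, and for 17 of these no opposite-strand gene was listed for GMP. On the same strand 6 genes overlapped another gene. Among them Hist1h1e and Hist1h2be overlapped each other, with 36455 to 47327 and 3145 to 7142 reads in a GMP library. No strand setting was given in the sources consulted, and reads of overlapping genes cannot be told apart.

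The 10 libraries differed in depth. Gene counts summed to 93850256 to 122658636 in a GMP library and to 29533371 to 30437981 in an LSK library. The histone genes took 0.253% to 0.493% of the counts in GMP and 0.821% to 1.02% in LSK. Dnmt3a stood below both CTRL libraries of its population in each of the 6 KO libraries. In LSK it was at 151 and 145 CPM in CTRL and 55.5, 51.2 and 57.1 CPM in KO (log2 fold change −1.43 ± 0.08, SE, edgeR quasi-likelihood test, Benjamini-Hochberg adjusted p = 1.06e-04). In the fit of all 10 libraries the same LSK comparison gave −1.44 and did not pass (edgeR adjusted p = 1). In GMP it was at 143 and 115 CPM in CTRL and 51.7, 65.9 and 20.5 CPM in KO (−1.499 ± 0.425, edgeR adjusted p = 0.30). CPM values are counts scaled to a common library size, computed on library sizes scaled with TMM over all 10 libraries. The 10 LSK marker genes were all called higher in LSK CTRL than in GMP CTRL, and of 10 GMP marker genes 8 were called lower and 2 higher, and none of either list was at 0 in all libraries. The description of GMP library KO-352 refers to LSK data, against its title, which was followed, and some of the counts and medians that rest on this library are also given without it.

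Among the H1 genes, which encode the linker histones that bind DNA between nucleosomes, 5 were highly expressed in every library and the testis gene Hist1h1t was at 0.48 to 1.54 CPM. Levels of different genes are compared per kilobase of coding sequence. As a mean over the 10 libraries Hist1h1a had 1150 CPM per kb, Hist1h1c 891 and Hist1h1e 774, followed by Hist1h1d (769) and Hist1h1b (740). Among the core histones, Hist1h4d had 1200 CPM per kb and Hist1h4c 723, and Hist1h2bb had 944, and Hist1h2bg 444. The highest H3 gene, Hist1h3e, had 401 CPM per kb, and the highest H2a gene, Hist1h2ab, 112. The order differed between the populations: Hist1h1a had 1380 CPM per kb in GMP and 908 in LSK and Hist1h1c 550 and 1230, and Hist1h4d had 420 and 1980 and Hist1h2bb 697 and 1190. The genes differ in how much of them reads can be assigned to, and its part in this order was not tested. Coding windows of 50 bases were unique for 100% of Hist1h1a, 57.31% of Hist1h4d, 44.07% of Hist1h2bb, 29.53% of Hist1h3e and 28.15% of Hist1h2ab. Over the longest annotated transcript of each these shares were 100%, 89.81%, 59.91%, 26.56% and 41.98%. Class levels were therefore compared between libraries, and classes are set beside each other only by their changes and shares between libraries.

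**Figure D1:**
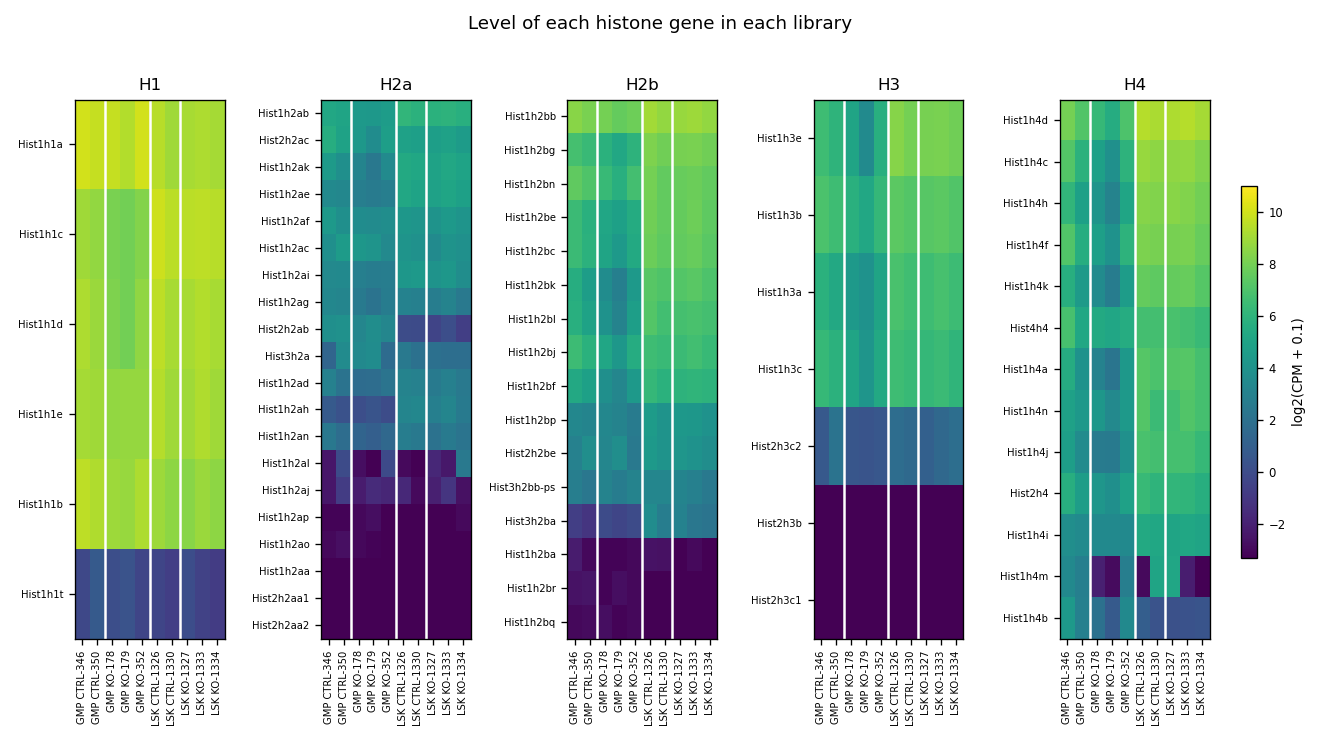
Level of each of the 62 histone genes (rows, by class and mean level) in each of the 10 libraries (columns, white lines between groups), as log2(CPM + 0.1) in colour. All 5 LSK libraries were brighter than all 5 GMP libraries in 29 genes, 10 of them of class H2b and 10 of H4, and 30 genes overlapped. In 3 genes all 5 LSK libraries were darker: Hist2h2ab (0.54 to 0.97 CPM) and, with hardly any reads, Hist1h2bq and Hist1h2br. Such separation was not counted over all genes, so these counts have no background to be read against.

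The first question was how the histone genes differed between the sorted populations, with CTRL and KO taken apart. The summed core histone genes were higher in LSK than in GMP, most of all those of H4, while those of H1 overlapped. Summed over its genes, H4 stood at 972 and 430 CPM in GMP CTRL-346 and CTRL-350 and at 2580 and 2260 CPM in LSK CTRL-1326 and CTRL-1330. Of the GMP KO libraries KO-178 had 269 CPM, KO-179 had 175 and KO-352 had 467, and of the LSK KO libraries KO-1327 had 2410, KO-1333 had 2480 and KO-1334 had 1930. All 5 LSK libraries were above all 5 GMP libraries. On the log2 scale the ratio of the group means was 1.79 in CTRL and 2.90 in KO, against a spread between libraries of 0.60 and 0.52 (SD). The same order held for H2b, with 409 to 1070 CPM in GMP and 1590 to 2060 in LSK, for H3, with 84.4 to 354 and 535 to 719, and for H2a, with 114 to 205 and 212 to 273. The H1 sum did not separate the populations: it was 2830 and 3430 CPM in GMP CTRL and 2670 and 3570 in LSK CTRL, a log2 ratio of −0.004 with a spread of 0.25. H4 made 6.28% to 16.1% of the summed CPM of all classes in GMP and 27.7% to 31.4% in LSK. That total leaves out H3 genes listed for LSK alone, which held 427 to 582 CPM in an LSK library. The class sums were given no test.

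**Figure D2:**
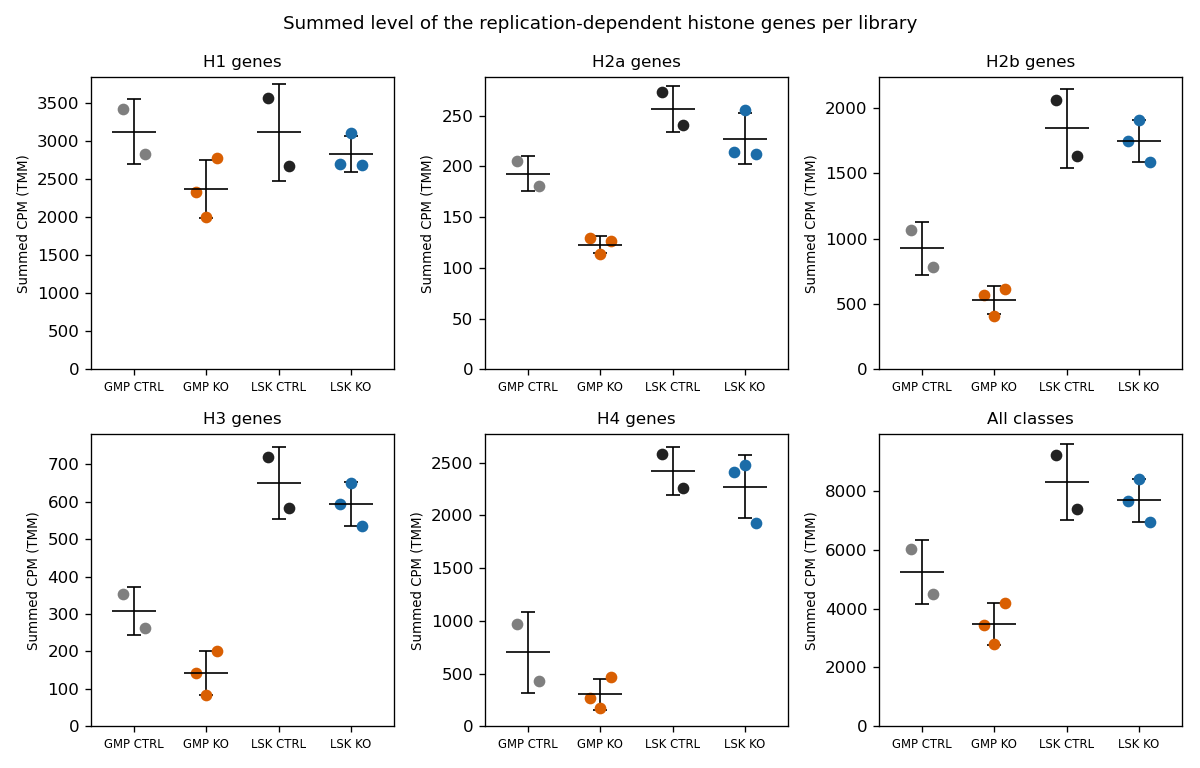
Summed CPM of the histone genes of each class in each library (points), with the mean and SD of each group (bars, n = 2 CTRL and n = 3 KO per population). For H2a, H2b, H3 and H4 every LSK library is above every GMP library, and for H1 they overlap.

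Gene by gene, 27 of the 52 tested histone genes were called higher in LSK CTRL than in GMP CTRL and 4 lower (edgeR, adjusted p under 0.05), where 28.2% of all 18836 genes tested were called higher and 27.3% lower. Their median log2 fold change was 0.85, and that of all genes 0.12. By class, 10 of 13 H4 genes, 9 of 13 H2b genes, 2 of 5 H3 genes, 5 of 15 H2a genes and 1 of 6 H1 genes were called higher. Between the KO groups 38 were called higher and 3 lower, against 30.7% and 30.1% of all genes, with a median of 1.403 against 0.08. The comparisons share no library but share 1 estimate of the spread. Scaling by total counts in place of TMM moved the LSK to GMP differences up by 0.395 on average, to 37 higher and 2 lower in CTRL with a median of 1.27, where the median of all genes rose to 0.53 and 42.0% of all genes were called higher and 15.3% lower.

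Of the H4 genes, which encode the most conserved histone, Hist1h4i was measured with a small error. It was at 13.3 and 11.5 CPM in GMP CTRL, 11.2 CPM in each of the 3 GMP KO libraries, 41.4 and 37.1 in LSK CTRL and 32.8, 37.2 and 32.7 in LSK KO. It hardly varied within a population, and it was higher in LSK by 1.66 ± 0.12 in CTRL (log2 fold change ± SE, edgeR adjusted p = 3.48e-06). The identical pair Hist1h4m and Hist1h4n is described together further on. Hist1h4n alone was higher by 2.23 ± 0.34. The abundant Hist1h4d was at 262 and 136 CPM in GMP CTRL and 667 and 579 in LSK CTRL (1.65 ± 0.40, edgeR adjusted p = 0.00535), Hist1h4c at 142 and 59.2 and at 440 and 378 CPM, and Hist1h4h at 69.9 and 28.3 and at 343 and 315 CPM. In each of these genes the GMP libraries lay far apart and still below all LSK libraries. Hist1h4b went the other way: it was at 1.54 to 21.6 CPM in the 5 GMP libraries and at 1.06 to 1.83 in the 5 LSK libraries (−3.28 ± 0.81 in CTRL, edgeR adjusted p = 0.00607), where GMP KO-179 was within the LSK range. It overlaps 4930558J22Rik on the opposite strand, a gene with 5 to 32 reads in a GMP library and 3 to 8 in an LSK library.

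Among the H2b genes Hist1h2bg was at 109 and 85.0 CPM in GMP CTRL, 56.9, 39.0 and 60.3 in GMP KO, 306 and 241 in LSK CTRL and 266, 282 and 235 in LSK KO. It was higher in LSK by 1.498 ± 0.211 in CTRL and 2.325 ± 0.177 in KO. Hist1h2be (1.60 ± 0.245 in CTRL) and Hist1h2bc (2.535 ± 0.239 in KO) were also called. Hist1h2bb, the most abundant, was at 353 and 283 CPM in GMP CTRL and 509 and 413 in LSK CTRL, a smaller difference (0.53 ± 0.15, edgeR adjusted p = 0.0135). Hist3h2ba, of the Hist3 cluster, was the H2b gene with the largest difference in CTRL: it was at 0.54 and 0.36 CPM in GMP CTRL and 12.4 and 6.70 CPM in LSK CTRL, 4.4 ± 0.435 higher (edgeR adjusted p = 1.96e-05). It had little RNA in any GMP library (0.36 to 0.86 CPM).

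H2a genes split. Hist1h2ae was at 10.9 and 9.64 CPM in GMP CTRL and at 38.5 and 31.4 in LSK CTRL (1.77 ± 0.15, edgeR adjusted p = 8.53e-06), Hist1h2ah at 1.56 and 1.11 and at 9.01 and 9.74 CPM (2.81 ± 0.31), and Hist1h2ab at 38.4 and 32.8 and at 70.0 and 58.1 CPM (0.85 ± 0.14). Hist2h2ab, an H2a gene of the Hist2 cluster, was at 9.28 to 15 CPM in the 5 GMP libraries and at 0.54 to 0.97 CPM in the 5 LSK libraries. Its log2 fold change in LSK was −4.02 ± 0.31 in CTRL (edgeR adjusted p = 4.42e-06) and −3.86 ± 0.26 in KO. Its opposite-strand neighbour Gm15444 had 0 to 6 reads in a GMP library and 0 to 2 in an LSK library. Hist2h2ac, which lies in the same cluster, was at 12.2 to 48.2 CPM in GMP and 23.4 to 29.5 in LSK and was not called (−0.49 ± 0.30 in CTRL, edgeR adjusted p = 0.188).

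Of the H3 genes Hist1h3e was at 93.3 and 64.7 CPM in GMP CTRL and 334 and 258 in LSK CTRL (1.91 ± 0.50, edgeR adjusted p = 0.00867), and Hist1h3a at 56.1 and 40.3 and at 119 and 97.9 CPM (1.17 ± 0.30). Hist1h3b, at 125 and 95.5 CPM and at 167 and 144 CPM, was called in KO (1.45 ± 0.21) and not in CTRL (0.50 ± 0.25, edgeR adjusted p = 0.113).

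The H1 sum overlapped between the populations (with a log2 ratio of 0.41 in CTRL under scaling by total counts), while its make-up differed. Hist1h1a made 30.1% to 36.9% of the H1 CPM in the 5 GMP libraries and 18.9% to 20.4% in the 5 LSK libraries. Hist1h1c, another somatic H1 gene, made 11.9% to 14.3% in GMP and 24.9% to 27.4% in LSK. In CPM, Hist1h1c was at 490 and 402 in GMP CTRL and 971 and 730 in LSK CTRL (0.93 ± 0.165, edgeR adjusted p = 8.31e-04), and Hist1h1a at 1040 and 853 and at 694 and 504 (−0.66 ± 0.21, edgeR adjusted p = 0.0206). Hist1h1b was lower in LSK CTRL too (−0.69 ± 0.19), at 485 and 373 CPM against 759 and 626 in GMP CTRL. Under scaling by total counts Hist1h1a and Hist1h1b were no longer called lower and Hist1h1b had a log2 fold change of 0.03 in KO, while Hist1h1c stayed higher (1.35 in CTRL). The shares within H1 do not depend on the scaling. Hist1h1d made 12.2% to 17.7% in GMP and 20.7% to 21.3% in LSK, and Hist1h1e 15.3% to 21.2% and 18.4% to 20%.

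**Figure D3:**
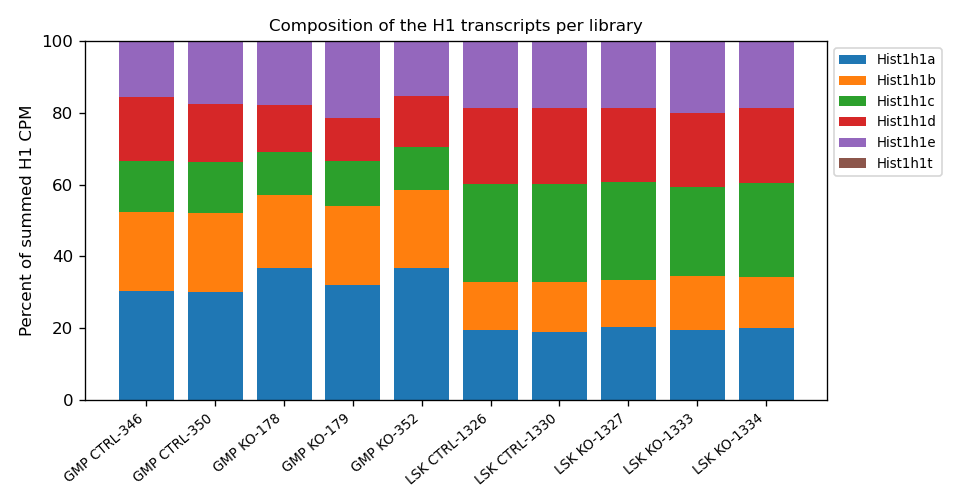
Composition of the H1 transcripts: each bar is 1 library and each colour the percent of the summed H1 CPM from 1 gene. Hist1h1a makes 30.1% to 36.9% in GMP and at most 20.4% in LSK, and Hist1h1c at most 14.3% in GMP and at least 24.9% in LSK.

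Genes of S phase and of histone mRNA processing were compared in the same way. Of 22 tested genes of histone RNA processing and S phase control, 13 were called lower in LSK CTRL than in GMP CTRL and none higher (median −0.41). Of all genes 27.3% were called lower and 28.2% higher, with a median of 0.12. Slbp was at 176 and 180 CPM in GMP CTRL and 120 and 113 in LSK CTRL (−0.61 ± 0.11, edgeR adjusted p = 8.27e-04). Casp8ap2, a factor of histone transcription at the histone locus body, was at a log2 fold change of −0.625 ± 0.108, and Npat, its partner that activates histone genes at entry into S phase, was not called (−0.14 ± 0.10). Of 46 S phase genes, a list that also holds Slbp, 37 were called lower in LSK CTRL and none higher, with a median of −0.74. Their summed level was 8600 to 11500 CPM in GMP and 6030 to 7510 in LSK. Of 8 proliferation markers 6 were called lower. Under scaling by total counts the S phase median was −0.32, with 22 called lower and 2 higher. The median of the processing genes was 0.01, with 4 lower and 2 higher. Of all genes 15.3% were then called lower and 42.0% higher, with a median of 0.53. Between the KO groups, 11 processing genes were called lower and 1 higher, and 34 S phase genes lower and 1 higher, against 30.1% and 30.7% of all genes. Under scaling by total counts these became 6 lower and 9 higher (median 0.14) and 15 lower and 5 higher (median −0.155). That scaling called 18.5% of all genes lower and 44.7% higher, with a median of 0.46. Among 11 tested replication-independent variants, 4 were called higher and 3 lower in LSK CTRL, where 28.2% and 27.3% of all genes were. H2afx, the variant whose transcript carries the stem-loop, was higher (0.60 ± 0.13), and H2afz, which replaces H2A outside S phase, was lower (−0.75 ± 0.12).

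Population coincides here with count table, annotation and depth, which cannot be told apart from the cells. The tables list different sets of genes, and genes without a poly(A) tail other than histones went both ways. Of 9 tested, 3 were called higher and 2 lower in CTRL, where 28.2% and 27.3% of all genes were. Their log2 fold changes went from −11.30 to 1.89, and Rnu11 was at 0 CPM in every LSK library. Leaving out a CTRL library leaves 1 library in its group, so only the median log2 fold change in CTRL is given. It was 0.73 without GMP CTRL-350, 0.71 without LSK CTRL-1326, 0.88 without LSK CTRL-1330 and 1.05 without GMP CTRL-346. Without GMP KO-352, 29 histone genes were called higher and 4 lower in CTRL, against 32.1% and 31.1% of all genes. Between the KO groups 40 were called higher and 2 lower without GMP KO-352, against 32.7% and 30.9% of all genes, with a median of 1.65.

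The second question was whether loss of Dnmt3a changed these genes. In GMP the summed level of each class was lower in KO, and no single gene passed the test over all genes. The H3 sum was at 354 and 263 CPM in CTRL and at 143, 84.4 and 201 in KO, and the H2b sum at 1070 and 783 and at 566, 409 and 617 CPM. For H2a it was 205 and 181 CPM and 129, 114 and 126 CPM, and for H1 3430 and 2830 CPM and 2330, 2010 and 2780 CPM. In these 4 classes every KO library was below both CTRL libraries. The H4 sum overlapped, with 972 and 430 CPM in CTRL and 269, 175 and 467 CPM in KO. On the log2 scale the ratio of the means, KO over CTRL, was −0.40 for H1, −0.65 for H2a, −0.80 for H2b, −1.11 for H3 and −1.21 for H4, against a spread between libraries of 0.22, 0.11, 0.32, 0.50 and 0.77 (SD). Without CTRL-346 these were −0.25, −0.56, −0.56, −0.88 and −0.50, so the rank of H4 rested on that library. Without KO-352 they were −0.53, −0.67, −0.92, −1.44 and −1.66.

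Of the 52 genes tested in GMP, 49 had a negative log2 fold change, where 48.8% of all 17290 genes did. The median was −0.89, and 0.01 over all genes. No gene passed with edgeR (lowest adjusted p = 0.26), where 0.0347% of all genes did. At an unadjusted p under 0.05 there were 29 lower and 0 higher, against 6.62% and 7.19% of all genes, and DESeq2 called 17 lower and 0 higher, against 1.67% and 2.65%. In 30 genes every KO library was below both CTRL libraries and in 1, Hist3h2ba, above them, against 15.1% and 16.5% of all genes. These 30 were 4 of 6 H1 genes, 9 of 15 H2a, 9 of 13 H2b, 5 of 5 H3 and 3 of 13 H4 genes. What the p-values measure is the spread between these libraries only, since apart from their numbers nothing in the labels says that each is a separate animal.

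The gene with the smallest p was Hist1h2ab, at 38.4 and 32.8 CPM in CTRL and at 21.6, 19.6 and 24.2 CPM in KO, with a log2 fold change of −0.72 ± 0.15 (edgeR adjusted p = 0.26). The 3 KO libraries lay close together and below CTRL. It was followed by Hist1h2bg, at 109 and 85.0 CPM in CTRL and 56.9, 39.0 and 60.3 in KO (−0.91 ± 0.21), Hist1h2ai, at 10.8 and 10.9 and at 7.03, 6.24 and 6.74 CPM (−0.71 ± 0.17), and Hist1h1c, at 490 and 402 and at 280, 248 and 330 CPM (−0.65 ± 0.16), with edgeR adjusted p from 0.26 to 0.27. DESeq2 called each of these 4, with adjusted p of 0.0019, 0.00619, 6.32e-04 and 0.015. Of the abundant genes, Hist1h3e was at 93.3 and 64.7 CPM in CTRL and 33.4, 11.5 and 52.6 in KO (−1.30 ± 0.53). Hist1h4d was at 262 and 136 CPM in CTRL and 76.9, 46.8 and 126 in KO (−1.28 ± 0.43), Hist1h4c at 142 and 59.2 and at 28.6, 14.7 and 62.1 CPM (−1.54 ± 0.59), and Hist1h2bb at 353 and 283 and at 254, 197 and 231 CPM (−0.50 ± 0.15). In Hist1h4c KO-352 lay above CTRL-350. Hist1h1a was at 1040 and 853 CPM in CTRL and at 862, 643 and 1020 in KO and overlapped (−0.18 ± 0.20).

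A few genes did not follow. The 3 with a positive log2 fold change were all of the Hist3 cluster on chromosome 11. Hist3h2ba was at 0.54 and 0.36 CPM in CTRL and 0.86, 0.70 and 0.86 in KO (0.83 ± 0.395, edgeR adjusted p = 0.40), and the pseudogene Hist3h2bb-ps at 6.92 and 4.96 and at 8.26, 6.32 and 8.47 CPM (0.36 ± 0.25). Hist3h2a, whose exons overlap Trim17 on the same strand, was at 2.49 and 12.0 CPM in CTRL and at 11, 12.5 and 3.07 CPM in KO (0.29 ± 0.75). The libraries with a high Hist3h2a were KO-178, KO-179 and CTRL-350, and its log2 fold change was −0.44 without CTRL-346 and −0.53 in a model with the percentage of reads outside genes. Hist1h4i, at 13.3 and 11.5 CPM and 11.2 in each KO library, differed little (−0.16 ± 0.16), and Hist2h2be, an H2b gene without a stem-loop match, was at 7.80 and 13.2 CPM and at 9.32, 13.2 and 5.48 CPM (−0.17 ± 0.39).

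**Figure D4:**
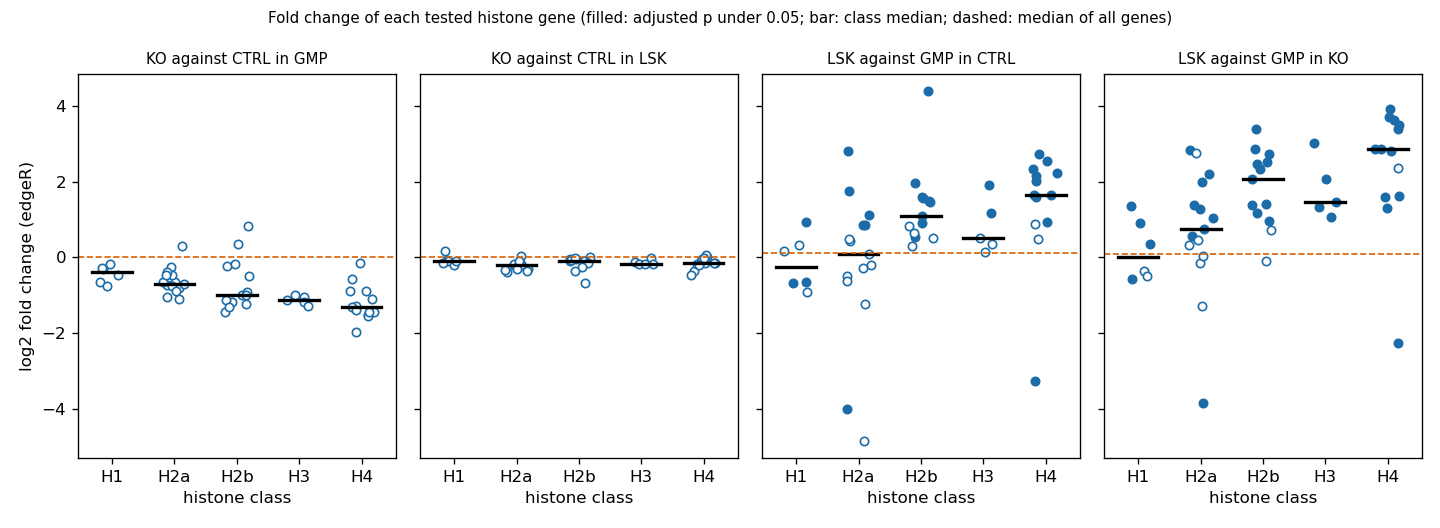
log2 fold change (edgeR) of each tested histone gene by class in 4 comparisons. Filled points passed an adjusted p of 0.05, thick bars are class medians and the dashed line is the median of all genes. In GMP the KO medians go from −0.38 in H1 to −1.33 in H4 with no gene filled, in LSK they lie from −0.10 to −0.21, and in LSK against GMP most H2b and H4 genes are filled above the line.

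The GMP libraries also differed within a genotype. In 36 of the 52 tested genes CTRL-346 was highest and KO-179 lowest, and between these libraries the H4 sum differed by 5.54 times, the H3 sum by 4.19, the H2b sum by 2.61, the H2a sum by 1.79 and the H1 sum by 1.71. Other measures differed between these libraries too. Reads outside annotated genes made 15.5% of the listed reads in KO-178, 16.1% in KO-179, 8.5% in CTRL-346, 14.2% in CTRL-350 and 10.3% in KO-352. In the same order, the summed S phase genes were at 9050, 8600, 11500, 9730 and 10500 CPM, with 33 of 46 negative in KO (median −0.16). The 10 GMP markers were summed at 19000, 16800, 26900, 20900 and 22700 CPM, lowest and highest in the same libraries as the histone genes, with 7 of 10 negative in KO. Of the 10 LSK markers 8 were positive in GMP KO, and they were summed at 804, 921, 781, 724 and 788 CPM. The 9 mature neutrophil markers, none of them at 0, were summed at 2520, 4880, 1060, 2560 and 636 CPM, lowest in KO-352, and all 9 had positive log2 fold changes in KO (median 0.78). Other short protein coding genes moved the same way as the H4 sum in KO-178, KO-179 and CTRL-346, with smaller values. Relative to the GMP mean, 82 genes with transcripts up to 700 bases stood at a median log2 of −0.13, −0.12, 0.17, 0.05 and 0.02. The H4 sum stood at −0.78, −1.40, 1.07, −0.11 and 0.01. In the group with the longest transcripts (5413 genes) the medians were −0.02, −0.03, 0.03, −0.02 and 0.02. In KO-178, KO-179 and CTRL-346 the shift was thus larger in the short genes. A median over genes and a class sum are different measures, so their sizes compare only roughly. The part of these measures in the histone difference was not tested beyond 1 fit: with the percentage of reads outside genes in the model the median was −0.69, 49 of 52 were negative (Hist3h2a now among them), and Hist1h1c (−0.50, edgeR adjusted p = 0.0462) and Hist1h2be (−0.72, edgeR adjusted p = 0.0374) passed, where 0.769% of all genes were called lower. The late erythroid markers summed to 2.67 to 8.14 CPM in GMP and the B cell markers to 38.2 to 49.3. Without CTRL-346 the median was −0.55 and without CTRL-350 it was −1.11. Without KO-352 it was −1.02, with 47 of 51 negative, and Hist1h4m alone passed (edgeR adjusted p = 0.0254), where 0.328% of all genes were called lower. This gene had 13 and 4 reads in KO-178 and KO-179 and 585 in KO-352, against 897 and 586 in CTRL. Its split with Hist1h4n is described further on.

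In LSK no histone gene passed the test between KO and CTRL. The sum over all classes was 9210 and 7390 CPM in CTRL-1326 and CTRL-1330 and 7670 in KO-1327, 8410 in KO-1333 and 6950 in KO-1334, and KO and CTRL overlapped in every class. The log2 ratio of the means was −0.14 for H1, −0.18 for H2a, −0.08 for H2b, −0.13 for H3 and −0.09 for H4, against a spread of 0.14 to 0.23 (SD). Of 50 genes tested 46 had a negative log2 fold change, where 49.2% of all 17238 genes did, with a median of −0.14. None passed with edgeR, where 0.0232% of all genes did, or with DESeq2, which called 0.0382% of all genes higher and 0.042% lower, and 1 was lower at an unadjusted p under 0.05, where 1.72% of all genes were. The count of negative genes rested on CTRL-1326, which was highest in 34 of the 50: without it 26 of 52 were negative and the median was −0.01. With LSK libraries scaled among themselves, all KO libraries were below both CTRL libraries in 4 genes (7.26% of all genes): Hist1h2ad, Hist3h2a, Hist3h2bb-ps and Hist1h4i. On the CPM printed here, scaled over all 10 libraries, there were 3, since Hist1h4i was at 37.2 in KO-1333 and 37.1 in CTRL-1330. The smallest p was that of Hist3h2ba, at 12.4 and 6.70 CPM in CTRL and 8.05, 5.12 and 4.48 in KO (−0.68 ± 0.30, edgeR adjusted p = 1.0). Of the abundant genes Hist1h4d was at 667 and 579 CPM in CTRL and 594, 666 and 547 in KO (−0.04 ± 0.11), and Hist1h2bb at 509 and 413 and at 442, 478 and 408 CPM (−0.05 ± 0.11).

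The KO effects of the populations were set against each other in the fit of all 10 libraries. None of 52 histone genes passed (edgeR, lowest adjusted p = 0.40), where 0.0265% of all 18836 genes did, and none with DESeq2, which called 0.239% of all genes higher and 1.06% lower. The fitted difference, LSK minus GMP, was positive in 47 genes with a median of 0.83, and 14 were higher and 1 lower at an unadjusted p under 0.05, against 3.75% and 6.31% of all genes. The smallest p among them were those of Hist1h2bg (0.83 ± 0.27, edgeR adjusted p = 0.40) and Hist3h2ba (−1.54 ± 0.50, edgeR adjusted p = 0.41). Without KO-352, 4 passed: Hist1h2bf, Hist1h2bk, Hist1h3a and Hist1h3b, with edgeR adjusted p from 0.0342 to 0.0434, where 1.39% of all genes were called higher. In that fit 8 of 52 were negative, with a median of 0.98.

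Hist1h4m and Hist1h4n, an identical pair, split the libraries in a way that followed neither population nor genotype. They lie at chr13:21811746-21812147 and chr13:21831767-21832196 on opposite strands, their coding sequences are identical, and over 402 compared transcript bases they differ by 1 base, G36A from Hist1h4m to Hist1h4n, counted from the 5′ end of the transcript and just before the start codon at base 39. The stretch around it, bases 22 to 50, shows the differing base in capitals.
Hist1h4m: acagttttgtcttcGtcatgtctggtcgt
Hist1h4n: acagttttgtcttcAtcatgtctggtcgt
Hist1h4m made 27.6% of the reads of the pair in GMP CTRL-346, 26.2% in CTRL-350 and 25.2% in KO-352, and 26.2% and 27.9% in LSK KO-1327 and CTRL-1330. In the other 5 libraries it made 0.741% (GMP KO-178), 0.339% (GMP KO-179), 0.0212% (LSK CTRL-1326), 0.0863% (LSK KO-1333) and 0% (LSK KO-1334). No library lay between 0.741% and 25.2%. The summed level of the pair was 39.7, 27.1 and 27.0 CPM in the former GMP libraries and 19.4 and 10.7 in the latter, which did not overlap. As a share of all H4 it was 4.08%, 6.29% and 5.79% in the former and 7.21% and 6.07% in the latter, which overlapped. In LSK it was 137 and 118 CPM in the former and 143, 140 and 111 CPM in the latter, which overlapped, and it made 5.22% to 5.77% of all H4 in every LSK library. The SE of the log2 fold change of Hist1h4m between KO and CTRL was 1.60 in GMP and 1.79 in LSK.

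**Figure D5:**
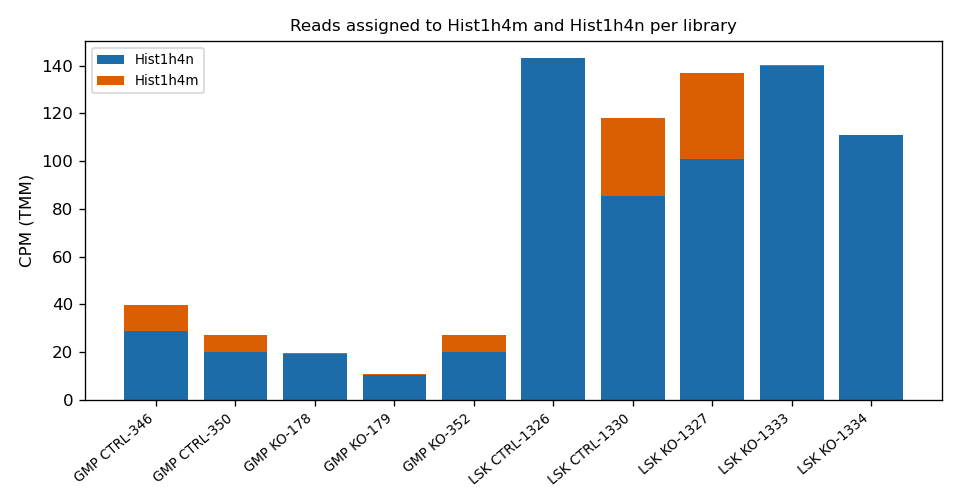
CPM assigned to Hist1h4n and Hist1h4m in each library, stacked. Hist1h4m makes 25.2% to 27.9% of the bar in 5 libraries and at most 0.741% in the other 5, in both populations and both genotypes, while in LSK the whole bar stays between 111 and 143 CPM.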

How the data were processed

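Total RNA of sorted GMP and LSK cells was sequenced after removal of ribosomal RNA, per the labels' protocols. The deposited tables hold raw read counts per Ensembl gene, made by the authors. STAR, HTSeq 0.5.3p3, DESeq 1.18.0, DESeq2 1.4.5 and mm10 (GRCm38) are named in the submitters' processing notes, with no role. No strand setting, annotation release or read length was given in the sources consulted. The GMP table also lists reads that fell outside genes (8.5% to 16.1%), were not uniquely aligned (26.3% to 29.0%) or were ambiguous (1.14% to 1.32%), which were left out of library sizes.

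Counts were tested with edgeR 4.0.16 in R 4.3.3 (quasi-likelihood test, filterByExpr with a minimum count of 10, TMM scaling, Benjamini-Hochberg adjustment over all genes, threshold 0.05). KO and CTRL were compared in each population separately, and the populations in 1 fit of all 10 libraries over 38086 shared identifiers. SE is the absolute log2 fold change over the square root of F. Class sums are CPM added over genes, with no test. Alternatives were DESeq2 1.42.0, its size factors, total counts, no filter, leaving out each library, and for GMP a model with the percentage of reads outside genes. The code was tested on simulated data. Depth was 93850256 to 122658636 counts in GMP and 29533371 to 30437981 in LSK.

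The members and the gene lists were chosen with earlier results of these data known. The text names Dnmt3a first, the highest genes per kilobase of each class, called genes by p or otherwise the 4 with the smallest p in a direction, genes at the extremes of unique sequence, and up to 3 genes per list. Other genes (among them Hist1h4c, Hist1h4h, Hist1h4m, Hist2h2ac, Hist2h2be, Npat and H2afx) were chosen after their values were seen.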

Additional observations from a re-analysis of the deposited data

Results flagged for a closer look

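A total of 5 H3 genes carried signal outside the comparisons, because they were listed in the LSK table alone. Their mean level over the 5 LSK libraries was 121 CPM for Hist1h3d (103 to 142), 167 CPM for Hist1h3f (138 to 193), 57.0 CPM for Hist1h3g (49.8 to 68.7), 54.9 CPM for Hist1h3h (46.1 to 61.8) and 97.9 CPM for Hist1h3i (88.0 to 117). Together they held 582 and 473 CPM in LSK CTRL-1326 and CTRL-1330 and 486 CPM in KO-1327, 521 in KO-1333 and 427 in KO-1334. The H3 genes listed in both tables held 719 and 583 CPM and 594, 651 and 535 CPM in the same libraries. The H3 sums above therefore leave these genes out in both populations. Hist2h2bb, also listed for LSK alone, had 0 reads.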

How the results depend on the processing

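No paired analysis was possible because no library number is shared between groups. In GMP, genes called lower in KO numbered 17 with DESeq2, where 1.67% of all genes were. With the percentage of reads outside genes in the model they numbered 2 (0.769% of all genes). They numbered 1 in the fit of all libraries (0.34%) and 1 without KO-352 (0.328%). Without KO-178 or KO-179 none was called. Called lower in LSK against GMP in CTRL were 2 with total counts (15.3% of all genes) and 4 without GMP KO-352 (31.1%). In KO there were 5 with no filter, where 5849 of 26568 genes were called lower. The difference of KO effects had 0 called in the main fit (0.0265% of all genes) and 4 called higher without KO-352 (1.39%). For LSK against GMP with total counts, the log2 ratios of class sums in CTRL were 0.41 (H1), 0.83 (H2a), 1.42 (H2b), 1.498 (H3) and 1.08 (all), and in KO 0.64 (H1), 1.265 (H2a), 2.10 (H2b) and 1.53 (all). Without the most abundant gene of each class the ratio was 0.63 for H3 in CTRL, and in KO 0.565 (H1), 0.75 (H2a), 2.10 (H2b) and 1.58 (H3). The H4 ratio in CTRL ranged from 1.32 to 2.49 with single libraries left out. The 59 values of class sums between KO and CTRL in each population, under all settings run, moved by less than the spread between libraries. With single libraries left out, the LSK ratios still changed sign in H1 (−0.33 to 0.088), H2b (−0.24 to 0.097), H3 (−0.28 to 0.026) and H4 (−0.18 to 0.015). That of H2a did not (−0.27 to −0.082). In GMP the ratios of all classes stayed negative, with H4 from −1.68 to −0.50. Signs changed for genes near 0 when single libraries were left out. Between KO and CTRL in GMP, Hist3h2a ranged from −0.44 to 1.79 (−0.045 without KO-179) and was −0.53 in that model. In LSK, Hist1h1t ranged from −0.16 to 0.36 (−0.021 without CTRL-1330), Hist1h4n from −0.26 to 0.45 (−0.075 without KO-1333), Hist1h2bj from −0.071 to 0.10 (−0.056 without CTRL-1330) and Hist1h2af from −0.086 to 0.092 (−0.02 without CTRL-1330). In the difference of KO effects, Hist3h2a ranged from −2.16 to 0.058 and Hist1h4i from −0.17 to 0.093 (0.03 without LSK CTRL-1326). With total counts Hist1h1b in KO was at 0.027. Apart from what fewer samples or genes bring, the cause was not tested. A scaling without mitochondrial genes and genes at 0 in 1 population was added after the data were seen. Dnmt3a in GMP passed without KO-352 (edgeR adjusted p = 0.0493). In LSK it lost its call in the fit of all libraries (edgeR adjusted p = 1). Reads shared by near-identical genes limit what single genes show.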

Other observations

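Hist1h2al, an H2a pseudogene apart from the cluster, was at 5.53 CPM in LSK KO-1334 and at 0.20 CPM or less in the other LSK libraries. In GMP it was at 0.88 CPM in CTRL-350 and 0.83 CPM in KO-352.

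Gm20628, annotated opposite Hist2h3b, had 12684 to 16492 reads in a GMP library and 61 to 121 in an LSK library, while Hist2h3b had 0 reads in all 10.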
